A study of Drosophila melanogaster with 2 samples.

Results

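The accessible sites described here lie on the X chromosome of Drosophila S2 cells, away from the annotated ends of genes. A site is 1 line of the deposited list of ATAC-seq peaks, and it was taken when its summit lay more than 250 bp from the start and the end of every gene in the RefSeq table of the dm6 assembly. Of the 35535 summits in the list, 5562 were on X and 3974 of these met the rule, in 3032 intervals. Of the 3974 sites, 3461 were inside a gene and 513 were outside every gene. The same class held 4873 summits on chromosome arm 2L, 5390 on 3L and 5906 on 3R, and these arms serve as the comparison.

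ATAC-seq maps open chromatin with the Tn5 transposase, which cuts and tags DNA that is not wrapped in nucleosomes. S2 is a cell line derived from embryos, with features of hemocytes, the blood cells of the fly, and it was grown without treatment at 25°C, per the labels. The series has 1 group of 2 libraries, each from 2000000 cells and 12 cycles of PCR, and 1 list of peaks serves both. No value per library was used, so no site has a replicate error and no difference was tested. The intervals given below (95%) cover counting error only and take summits as independent, although summits of 1 interval share fragments.

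In flies with a single X, and in S2 cells, the MSL complex binds X chromosome genes, acetylates histone H4 through its subunit mof and raises transcription. It carries the noncoding RNAs roX1 and roX2, both made from X. Open sites away from gene ends also include enhancers and the starts of shorter transcripts inside a gene. Such inner starts are not in the gene table, which gives only the outer ends of each gene and no strand, so inside sites were not split into enhancers and inner promoters.

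Sites on X were more often inside genes than those on the other arms. The share inside was 87.1% of the 3974 sites (exact interval 86.0 to 88.1%), against 77.2% on 2L, 76.4% on 3L and 80.5% on 3R. Genes also cover more of X. Sequence inside genes and more than 250 bp from an end made up 68.0% of X, against 59.6, 57.7 and 65.5% of the 3 arms in the same order. Densities per length of sequence that could hold a site therefore served for the comparison.

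Outside genes X had fewer sites per length than each of the 3 arms. The density was 9.63 summits per 100 kb on X (exact Poisson interval 8.82 to 10.5), 16.5 on 2L, 14.0 on 3L and 14.9 on 3R. The ratio of X to the 3 arms together was 0.642 (0.584 to 0.704), and the interval of X did not meet that of any arm. Inside genes the difference was smaller. The density was 21.6 on X (20.9 to 22.3), 26.8 on 2L, 25.4 on 3L and 22.6 on 3R, and the ratio to the 3 arms was 0.876 (0.844 to 0.910). Against 3R alone that ratio was 0.955 (0.914 to 0.998). The lengths of 3R and 3L include long sparse sequence. In bins of 1 Mb, each bin from 0 to 4 Mb of 3R had at most 4.31 sites of both classes per 100 kb. Each from 23 to 28 Mb of 3L had at most 3.34, and the sparsest bin of X had 6.48. How far such sequence lowers the densities of those arms was not tested. Within 250 bp of gene ends, where no site of this class lies, X and the 3 arms had nearly the same density, with a ratio of 0.996 (0.942 to 1.05).

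**Figure D1:**
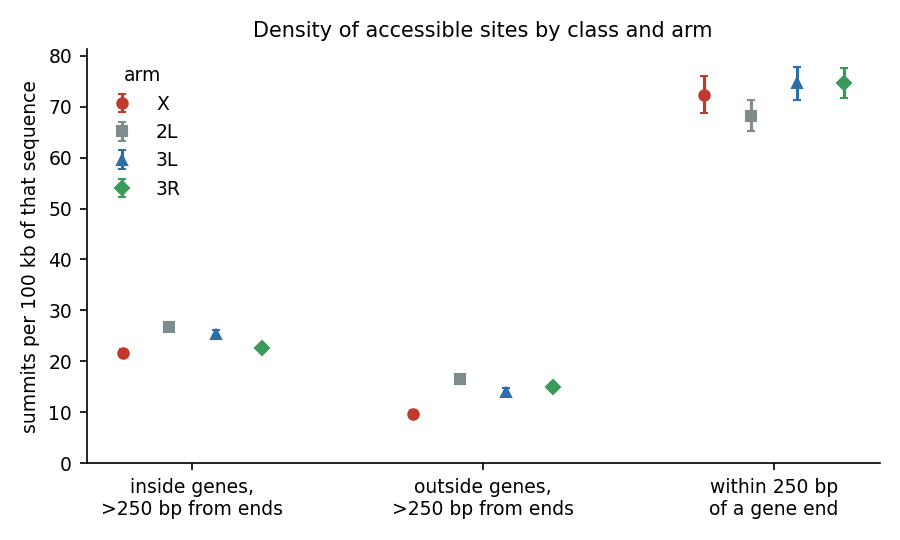
Summits per 100 kb of sequence of each class on X (circles), 2L (squares), 3L (triangles) and 3R (diamonds), with exact 95% Poisson intervals as bars. X is lowest outside genes, at 9.63 against 14.0 to 16.5, and lies among the other arms at gene ends.

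The density outside genes was close to that of the other arms near gene ends and lower beyond 2000 bp. Between 251 and 500 bp from a gene end the density outside genes was 36.3 summits per 100 kb on X (30.4 to 43.0) and 37.4 on the 3 arms together (34.4 to 40.5). Between 501 and 1000 bp it was 20.6 (16.9 to 24.9) against 27.8 (25.7 to 30.04), and between 1001 and 2000 bp 14.7 (12.1 to 17.8) against 18.7 (17.3 to 20.2). In both of these ranges the interval of X met those of 2L and 3R. Between 2001 and 5000 bp it was 6.69 on X (5.33 to 8.29) and 13.9 on the arms (12.9 to 14.9). Between 5001 and 10000 bp it was 4.18 on X (2.998 to 5.67), from 41 sites, and 11.0 on the arms (9.99 to 12.0). Beyond 10000 bp X had 2.76 (1.98 to 3.75), again from 41 sites, and the arms together 6.71 (6.09 to 7.37), with 5.07 on 3L, 6.52 on 3R and 11.4 on 2L. In the 3 ranges beyond 2000 bp the interval of X lay below that of each arm. The median distance of an outside site to a gene end was 1068 bp on X and 1902, 2144.5 and 1514 bp on 2L, 3L and 3R. Stretches between genes also tended to be shorter on X. Among stretches over 500 bp the median was 1.89 kb on X and between 2.00 and 2.38 kb on the other arms, and 24.1% of 918 such stretches on X held a site (21.3 to 27.0%) against 32.5 to 33.4%.

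Inside genes X had the density of the other arms up to 2000 bp from the ends. At 251 to 500, 501 to 1000 and 1001 to 2000 bp the densities on X were 36.1, 27.7 and 23.7 summits per 100 kb, and on the 3 arms together 37.2, 27.5 and 23.6. At 2001 to 5000 bp X had 20.3 (18.9 to 21.9) and the arms 24.8 (23.9 to 25.8). At 5001 to 10000 bp X had 20.3 (18.7 to 22.03) and the arms 27.1 (26.0 to 28.2). In both of these ranges the interval of X lay below that of each arm. Beyond 10000 bp X had 15.2 (14.0 to 16.4), which lay between 3R with 12.9 and 3L with 18.8, and 2L had 25.6. The values of 3R and 3L may be lowered by the sparse sequence of those arms given above, which was not tested.

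**Figure D2:**
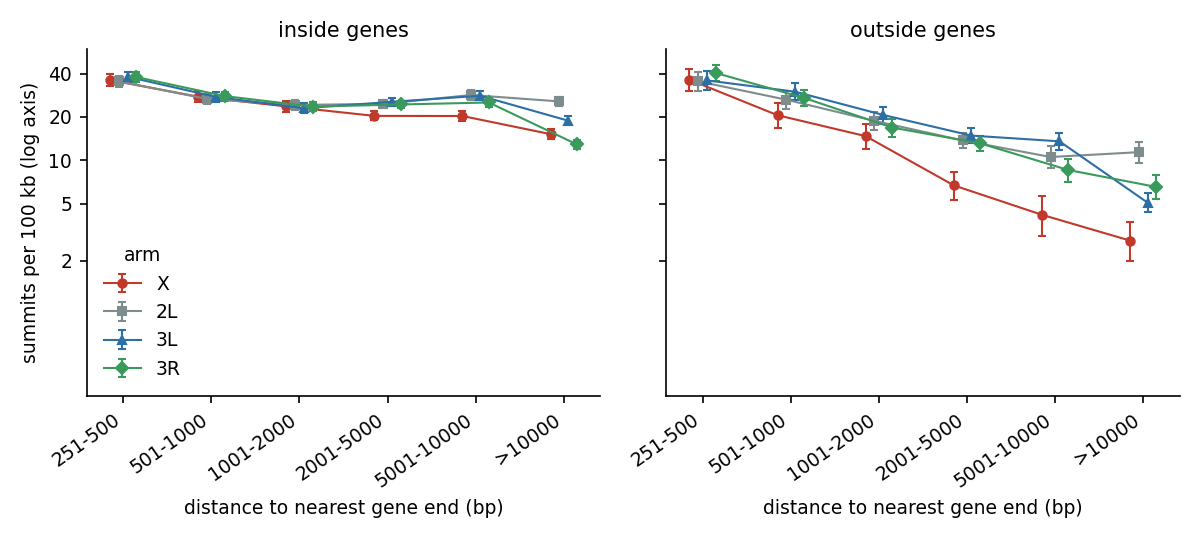
Summits per 100 kb (log axis) against distance to the nearest gene end, inside genes (left) and outside (right), for X and 3 autosomal arms, with exact 95% Poisson intervals. Outside genes the X line has intervals below those of every other arm beyond 2000 bp and reaches 2.76 in the last bin. Inside genes it stays with them up to 2000 bp, has intervals below theirs from 2001 to 10000 bp, and lies among them beyond.

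Over all sites, the median fold was higher on X than on each of the other arms. Fold is the authors' own value for each summit, the pileup of fragments over the local background. Inside genes the median fold was 3.76 on X (interval of the median 3.66 to 3.88, quartiles 2.62 and 6.21), against 2.99 on 2L, 3.04 on 3L and 3.05 on 3R. Outside genes it was 3.84 on X (3.57 to 4.09), against 2.81, 3.12 and 3.21. The pileup, recovered as a whole number of fragments for each summit, had a median of 56 inside genes on X (54 to 59) and 48, 48 and 49 on the arms. Outside genes it was 53 on X (49 to 57) and 38, 48 and 45 on the arms. The difference in median fold inside genes, 0.73 over the 3 arms together (0.62 to 0.85), was accompanied by a background lower by a median difference of -1.78 fragments (-2.07 to -1.50). It became 0.29 (0.12 to 0.47) with a −log10 q of at least 10, and 0.04 (-0.18 to 0.25) among summits at or above the list's median fold. Outside genes the difference was 0.79 (0.53 to 1.06), and under the same limits 0.35 each, with intervals that reached below 0. At the X gene ends, for reference, the median fold was 5.499 and the median pileup 70.5. Just past the limit of the rule, at 251 to 300 bp, 141 sites had a median fold of 4.58, and 176 summits at 201 to 250 bp had 4.14.

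Inside and outside sites of X differed little in strength. The median fold inside was lower by less than the width of either interval, and 3 fragments separated the median pileups. Background, the level the peak caller set around a summit, was higher inside genes, with a median of 11.5 fragments (11.3 to 11.8) against 9.91 outside (9.91 to 10.3). The lowest value the caller used is its genome-wide level of 9.91. That floor applied to 38.9% of inside sites on X (37.3 to 40.6%) and to 51.9% of outside sites (47.4 to 56.3%). On 2L, 3L and 3R it applied to 25.5, 29.5 and 24.3% of inside sites and to 46.7, 44.2 and 47.0% of outside sites. How many copies of X these cells carry was not measured, so fewer copies and a lower accessibility per copy cannot be told apart in any pileup or background given here. Densities, median folds, shares of genes with a site and gaps carry the same limit, since sites under 20 fragments are not in the list.

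Split by pileup, both the weakest and the strongest sites were fewer on X. Inside genes, summits of 20 to 29 fragments had a density of 3.48 per 100 kb on X and 6.03 on the 3 arms together, a ratio of 0.577 (0.526 to 0.631). The ratio was 0.977 (0.897 to 1.06) for 40 to 59 fragments and 1.13 (1.03 to 1.23) for 100 to 199. For 200 fragments or more it was 0.674 (0.587 to 0.772), from 257 sites on X. The lower density inside genes therefore depended on where the list was limited. With a −log10 q of at least 10 the ratio of X to the arms became 1.08, and among summits at or above the list's median fold of 3.61 it became 1.15. Under the same limits the difference in median pileup inside genes, 8 fragments higher on X over all sites, became -10 and -17.

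Outside genes X was lower in each band of pileup. The ratio was 0.413 (0.331 to 0.510) for 20 to 29 fragments and 0.704 (0.557 to 0.881) for 30 to 39. It was 0.829 (0.664 to 1.03) for 60 to 99 and 0.598 (0.421 to 0.831) for 200 or more, and the interval of the 60 to 99 band reached above 1. For sites with a fold of 12 or more the densities outside genes did not separate, at 0.676 per 100 kb on X (0.473 to 0.936, 36 sites) and between 0.429 and 0.700 on the arms. Inside genes such sites numbered 163 on X, or 1.02 per 100 kb (0.867 to 1.19), and 0.944 to 1.16 on the arms.

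**Figure D3:**
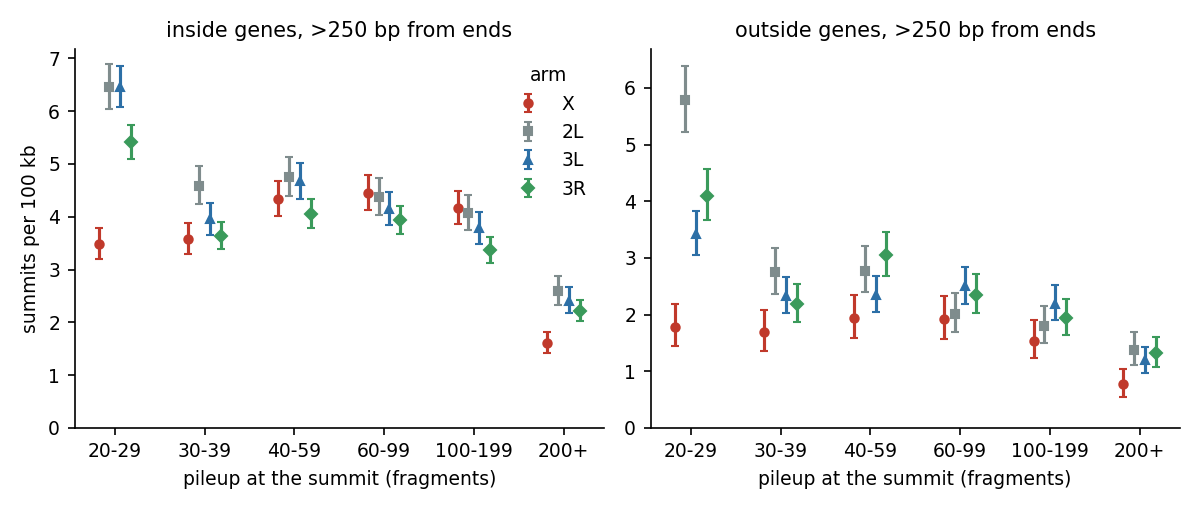
Summits per 100 kb in 6 bands of pileup, inside genes (left) and outside (right), more than 250 bp from gene ends, with exact 95% Poisson intervals. X (circles) is low in the band of 20 to 29 fragments, at 3.48 inside and 1.78 outside, and again at 200 or more.

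The 10 highest folds inside genes lay in genes of several kinds. The highest was 103, at X 10283758 inside alpha-Man-Ia, a mannosidase gene of N-glycan processing, with a pileup of 1207 (1140 to 1277). Its interval was only 63 bp wide. Among the 298 sites of X with 200 fragments or more it was the narrowest, where the median width was 384 bp and the next narrowest was 103 bp. Second came a site at X 20159151 inside Rab35, a small GTPase gene of membrane traffic, where 669 fragments (619 to 722) gave a fold of 27.7. Then came X 9042543 inside Nost and the noncoding gene CR43836, with a fold of 24.9. It was followed by Lim1, a LIM-homeodomain gene, at 23.4, CG43867 at 23.1, and a site held at once by Myc, CG12535 and the noncoding CR44999 at 22.4. Myc is the growth-promoting transcription factor. The rest of the 10 were in hiw, a ubiquitin ligase gene, at 22.1, Raf, the kinase above MEK in the MAP kinase cascade, at 22.1, dome, the JAK/STAT receptor gene, at 22.1, and fs(1)h, a BET bromodomain gene, at 20.7.

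By pileup the order was different. After alpha-Man-Ia came CG4313 with 734 fragments (682 to 789) at a site 275 bp from an end. Raf and roX1 had 714 each, CHES-1-like, a forkhead gene, had 700, RhoGAP18B 675 and Act5C 671. Their folds ran from 8.89 to 18.8, and the background at these sites was between 37.0 and 77.8 fragments. The 5 highest backgrounds of any site, from 89.7 to 98.6 fragments, were all inside CHES-1-like.

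The 10 highest folds outside genes included sites beside the developmental genes oc, unc-4 and btd. The highest, 85.1, was at X 22433043, 11184 bp from CG14621 and 180629 bp from CG41562, with a pileup of 3294 (3182 to 3408), the highest of all summits in the list. Its interval was 180 bp wide and its background 37.7 fragments. Next were sites on either side of oc, the head homeobox gene orthodenticle. At X 8625061, 5098 bp to its left, the fold was 30.2 and the pileup 329 (294 to 367), and at X 8651006, 325 bp to its right, the fold was 21.2 and the pileup 295 (262 to 331). Sites 327 bp from unc-4, a homeobox gene, 308 bp from btd, a head gap gene of the zinc-finger class, and 0.30 kb from upd3, a cytokine gene of the JAK/STAT pathway, had folds of 17.9, 16.7 and 15.8. The other 4 lay between CR45609 and CG6023 (20.4), between CG12643 and alpha-Man-Ia (17.6), between AnxB10 and Sdic1 (16.5), and between Rilpl and futsch (15.9). Sdic1 belongs to a cluster of near-identical repeats, so reads there may be split between copies. Of these 10 sites, 6 were within 500 bp of a gene end. Over all outside sites of X with a fold of 12 or more that share was 47.2%, and over all outside sites of X it was 25.9%.

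A site was found inside 701 of the 2197 protein-coding genes on X, or 31.9% (29.96 to 33.9%), against 29.2, 32.4 and 30.8% on 2L, 3L and 3R. The share followed gene length. Among genes of 2000 to 4999 bp it was 31.6% on X and 30.9% on the 3 arms together. Among those of 20000 to 49999 bp it was 75.2% for the 129 on X (66.8 to 82.4%) and 86.1% for the 440 on the arms (82.6 to 89.2%). Among genes of 50000 bp or more it was 78.3% for the 69 on X (66.7 to 87.3%) and 88.3% for the 179 on the arms (82.6 to 92.6%). Genes shorter than 2000 bp had a site in 4.64% of cases on X (3.35 to 6.25%) and 8.70% on the arms (7.87 to 9.59%). Of the 701 host genes on X 588 also had a summit at an end and 113 did not. On the 3 arms together 2086 of 2709 host genes had one. Of the 1496 X genes without a site 677 had a summit at an end. More than 1 RefSeq transcript was listed for 86.7% of the X host genes and for 42.0% of the 1496 others. The host genes were also longer, with a median of 7.36 kb against 1.78 kb. Among X genes of 20 kb or longer the contrast was smaller. There, more than 1 transcript was listed for 97.4% of the 151 with a site and 87.2% of the 47 without.

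Sites were unevenly shared among the 701 protein-coding hosts. A single site was found in 249 of them and 10 or more in 98, and the 10 richest held 465 sites, which is 13.4% of all 3461 inside sites. The noncoding genes CR44999 and CR44357, which overlap protein-coding genes, held 87 and 53. Among protein-coding genes the most were in kirre, an immunoglobulin-family adhesion gene of myoblast fusion, with 68 in 394 kb. Next were Tlk, a chromatin-linked kinase gene, with 64 in 69.8 kb, CG12535 with 49, ct, a homeobox gene, with 44, Raf with 43 and spri with 42. CG1677 and Hr4, a nuclear receptor gene, had 40 each, sgg, the fly GSK3 kinase of Wnt signalling, had 38 and CG43658 had 37. Per 10 kb of interior more than 250 bp from gene ends, Raf had 10.0 sites, Tlk 9.32, sgg 8.62 and ct 6.29, while kirre had 1.83, below the 2.20 of all X protein-coding genes.

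Levels within these genes also differed. In Raf the 43 sites had a median pileup of 166 and a lowest of 37, over a background of 16.8 to 77.8 fragments, and in Tlk the median was 141.5. In kirre the median was 37.5, the highest 174 (149 to 202), and the background stayed between 9.91 and 11.7. The strongest site of ct by fold, at 15.6 from 183 fragments, lay 26821 bp from any gene end.

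**Figure D4:**
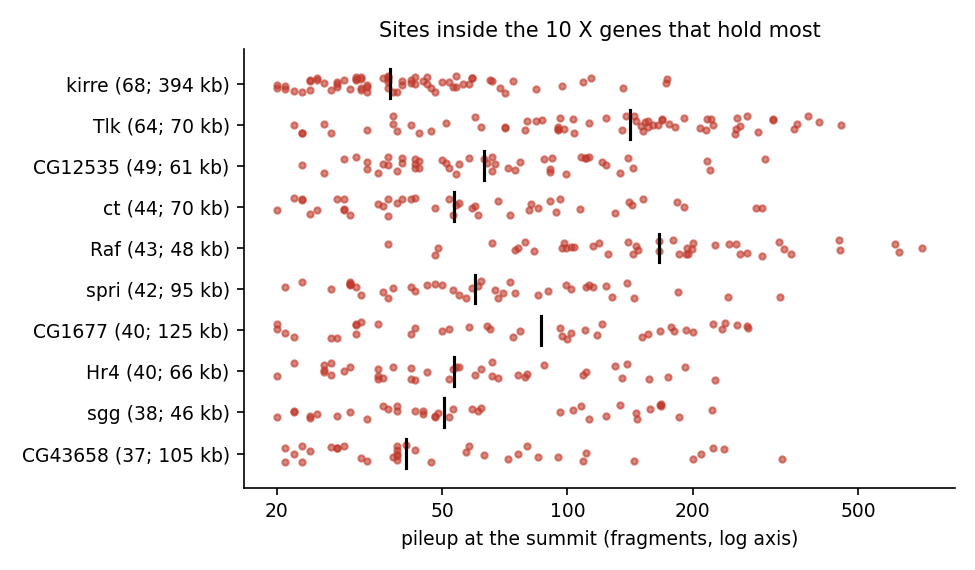
Pileup in fragments (log axis) of each site inside the 10 X protein-coding genes that hold most, with the number of sites and the gene length beside each name and the median as a black bar. Raf and Tlk have medians of 166 and 141.5 fragments, and kirre has 37.5.

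The X-encoded parts of dosage compensation were open in different ways, and 2 of the 3 listed, roX1, roX2 and mof, held a site. The site inside roX1 was among the strongest of the class, at X 3861308, 1389 bp from the right end, with a pileup of 714 (663 to 768), a background of 37.0 and a fold of 18.8. The summit at that end of roX1 had 155 fragments (132 to 181). Inside roX2 lay 1 weak site at X 11579634 with 25 fragments (16.2 to 36.9) and a fold of 2.18, while 3 summits within 250 bp of its ends had 104, 129 and 93. The acetyltransferase gene mof had no site inside and a summit of 76 fragments at an end.

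Pooled by list, the listed signalling and chromatin genes of X held more sites per length than the 2.20 per 10 kb of all X protein-coding genes. Of all those genes 31.9% had a site, and of those of 5000 to 9999 and 10000 to 19999 bp 65.1 and 68.3%. Rates per length, here and for the lists below, were not matched for gene length. Over all inside sites of X, density fell from 36.1 per 100 kb at 251 to 500 bp from a gene end to 15.2 beyond 10000 bp. The lists that follow were chosen by name with earlier results of these data known, so they are descriptions. Of 10 genes of growth, Wnt and kinase signalling, 9 had a site inside, 8.17 per 10 kb of interior, with Raf and sgg richest and dsh without. Of 15 chromatin and transcription genes 13 did, at 6.21 per 10 kb, with Tlk and Smr, a nuclear receptor corepressor gene, richest at 64 and 25 sites. Their highest folds were in fs(1)h and Tlk, at 20.7 and 19.9. The adjacent Polycomb genes ph-p and ph-d held 6 sites each, with highest pileups of 266 and 261, and the strongest site between them had 332 (297 to 370). Of 9 genes of JAK/STAT and immune signalling 4 (44.4%) had a site, with 18 sites in all, at 3.82 per 10 kb. Most of the 18 were in upd3 and Tak1. Rates in dome and Pvf1 were 1.44 and 2.06 per 10 kb, below the 2.20 of all X protein-coding genes. In upd3 there were 7, of which 3 neighbouring summits had 236, 260 and 215 fragments, and in Tak1, a kinase gene of the Imd pathway, 8 of at most 60. No site was inside hop, upd1 or upd2.

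Developmental regulators and structural genes had sites in most members, but these are long genes, with medians of 26.7 and 37.8 kb. Of all X genes of 20000 to 49999 bp 75.2% had a site. Of 20 developmental regulators 16 (80.0%) had a site, 2.89 per 10 kb, with ct and Hr4 richest and the highest folds in Lim1 and Bx, at 23.4 and 18.5. N, the Notch receptor gene, held 17, with a highest pileup of 446. The hemocyte gene lz, a Runx factor of crystal cells, held 2, of at most 108. The segmentation genes gt, run and btd and the leg gene disco had 0. At their ends btd and disco had summits of up to 291 and 272 fragments, and gt and run had none. All 13 genes of actin, adhesion and matrix had a site, at 2.17 per 10 kb, close to the 2.20 of all X genes. Act5C, the main cytoplasmic actin gene, had 4 in its 4.54 kb, at 671, 128, 152 and 114 fragments, over a background of 40.2 to 43.8. In Sxl, the master gene of sex determination, there were 3, and in sisA and snf 0.

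Sites were sparse or missing in several genes of other tissues. Of 16 neuronal genes, with a median length of 35.8 kb, 9 (56.25%, 29.9 to 80.2%) had a site. Of all X protein-coding genes 31.9% did, and of those of 20000 to 49999 bp 75.2%. Pooled, the neuronal genes had 1.33 sites per 10 kb, against 2.20 for all X protein-coding genes. Among the neuronal genes elav, hiw, comt and rut had more, at 7.04, 4.13, 3.37 and 3.19, and the rest had less than 2.20. These rates were not matched for gene length. Beyond 10000 bp from a gene end the density inside all genes of X was 15.2 per 100 kb, so how much of the difference goes with length was not tested. The potassium channel gene Sh, 139 kb long, had 0, and so did the calcium channel gene cac, at 53.8 kb. In para, the sodium channel gene, 3 sites lay within 5 kb of the left end, and the strongest had 219 fragments (191 to 250) and a fold of 20.2. The cAMP phosphodiesterase gene dnc held 32 and hiw 21. Inside elav, whose protein marks neurons, lay 9 sites, all of them also inside arg, the arginase gene, which overlaps it. The 2 strongest, also inside enrr, with 310 and 265 fragments, were 680 and 579 bp from a gene end. The 10 yolk and eggshell genes and the 4 genes of the achaete-scute complex had 0 sites, but these are short genes, with median lengths of 1.85 and 1.27 kb, and offer 20.5 and 3.87 kb in which a site could lie.

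Neighbouring sites were closer on X than on the other arms. The median gap from a site to the next was 803 bp on X and 986.5, 1047 and 1067 bp on 2L, 3L and 3R. On X 53.4% of gaps were under 1 kb, against 48.9 to 50.04% on the arms. Of the 2121 such gaps on X, 942 (44.4%) lay between summits of 1 called interval, against 45.5 to 46.9% on the arms. Among gaps between different intervals 38.9% were under 1 kb on X and 33.95 to 35.1% on the arms, with medians of 1818 bp on X and 2034 to 2269 bp. Counting every summit, 27.96% of sites stood in runs of 5 or more with gaps under 1 kb, against 24.7 to 25.0%. Sites with no neighbour within 1 kb made up 24.2% on X and 28.2 to 29.04% on the arms. The longest run on X had 16 sites over 4.01 kb inside Tlk, at a median pileup of 183.5. Then came 14 in CHES-1-like, 13 in Raf, 12 in ec, a gene of the ubiquitin protease family, and 11 across Raf and Ilp6, an insulin-like peptide gene that lies within it. The run in ec was unlike the others, with pileups of only 44 to 67 and no fold above 2.38.

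Between genes, the stretches with most sites were of different kinds. The 12.0 kb between Atf3, a bZIP transcription factor gene, and CG32812 held 14 sites, with a median pileup of 111 and a highest of 316 (282 to 353). The 56.7 kb between the noncoding genes CR46472 and CR44711 also held 14, but with a median of 26.5 and a highest of 46. Between CR44886 and CR46243 lay 12 sites, with a median of 76.5 and a highest of 273 (242 to 307). Between CR44711 and GCS2alpha, a glucosidase gene of glycoprotein processing, lay 10, with a median of 136.5 and a highest of 394 (356 to 435).

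Along the chromosome the density of sites varied widely. In the 23 full bins of 1 Mb it ran from 6.48 to 37.4 per 100 kb, with a median of 18.3, and the bin medians of 2L, 3L and 3R were 22.9, 23.6 and 22.4. The 2 densest bins of X were neighbours. The sequence from 2 to 4 Mb, which holds Raf, sgg, kirre, Myc, Tlk and roX1, had 666 sites, or 16.8% of all in 8.57% of the sequence that could hold one. The sparsest were the bin from 20 to 21 Mb, with 6.48, and that from 22 to 23 Mb, near the centromere, with 7.16. The 3 sites farthest from any gene end, at about 70.5 kb, were in that last bin, between CG41562 and CG14621, with 42 to 69 fragments. Next were sites near the left tip of the chromosome between SteXh:CG42398 and CR40469, at 58.7 and 52.8 kb from a gene, with 38 and 68 fragments.

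**Figure D5:**
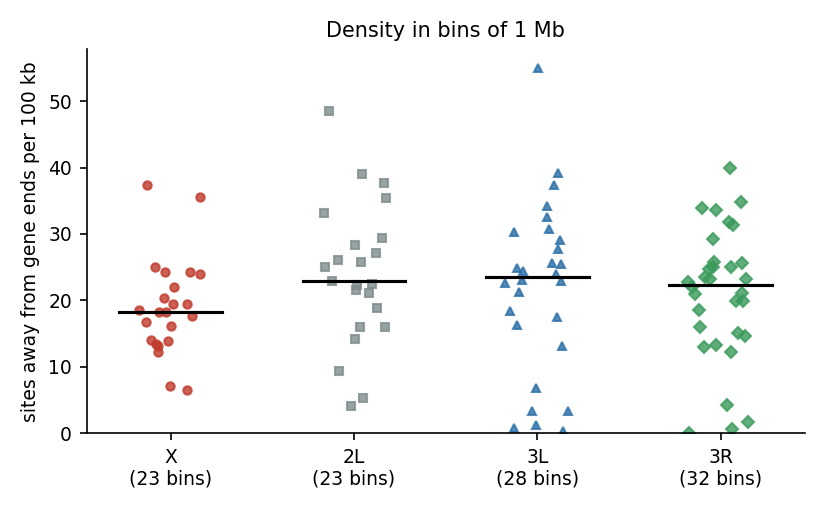
Sites away from gene ends per 100 kb of sequence that could hold one, each point a full bin of 1 Mb, for X (23 bins), 2L (23), 3L (28) and 3R (32), with the median as a black bar. The bins of X have a median of 18.3 and reach 37.4, and those of the other arms have medians of 22.4 to 23.6.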

How the data were processed

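The deposited list holds 1 line per summit of both libraries. The submitters' processing notes name Bowtie2, MACS2, deepTools and dm6, without versions or settings. Pooling, duplicate removal, the treatment of reads from repeats and any shift of Tn5 cut sites are not stated in those notes, and each can move summits or change pileups. The fold is the authors' ratio of pileup to local background with 1 added to each. For −log10 p and −log10 q the deposited values were taken unchanged, and the deposited score was not used. Library depth is unknown.

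Positions are counted from 1. In 65 lines of the list without a summit the interval's middle was used. Pileup and background were solved from fold and −log10 p under a Poisson upper tail (35535 of 35535 summits, −log10 p met within 0.001) and tested on simulated data. The word fragments comes from the peaks' names, so counts may be of extended reads. A background within 0.005 fragments of 9.91 counted as genome-wide. Genes (17807 on 7 chromosomes, 2705 on X) came from RefSeq, Release 6 plus ISO1 MT. A site counts for each gene that holds it, and 12.1% of inside sites lie in 2 or more. Densities divide by the sequence, up to the last gene or interval of an arm, that could hold such a site. Shares carry Clopper-Pearson intervals, ratios of densities exact conditional intervals, medians order-statistic intervals (SciPy 1.17.1). Columns of other samples left out numbered 0. Sites and lists were chosen with earlier results of these data known. Sites named are the 10 with the highest fold inside and outside genes, the 10 genes, 5 stretches and 5 runs with most sites, the 5 farthest and the 5 of highest background, and in each list the 2 richest genes and the highest folds. The sites of highest pileup and other names were picked after their values were seen. Of the 5 stretches, 1 is not reported here. The planned motif search was not run, since no genome sequence was used here.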

Additional observations from a re-analysis of the deposited data

How the results depend on the processing

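There were 13 results and 10 alternatives, of which 3 were chosen after seeing the data. Of 99 values, 58 moved by less than their counting interval. These kept their direction except for the median fold inside minus outside on X. That difference, -0.0781 over all sites, became 0.118 (-0.129 to 0.366) more than 500 bp from ends. More than 1000 bp away it became 0.183 (-0.106 to 0.473). The other values follow, and the cause was not tested. Differences are of medians, X minus the 3 arms unless said.

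With −log10 q of at least 10, the density ratio of X to the arms became 1.08 inside genes, a reversal, and 0.801 outside. Fold differences became 0.29 and 0.35, and background differences -3.96 and -2.23 (inside, then outside). Pileup differences reversed to -10.0 and -7.0 fragments, the latter with an interval that reached above 0 (-17.1 to 3.06). Inside minus outside on X, background became 1.07 and pileup 8.50 fragments, and 25.2% of X genes held a site. With fold at or above the list's median, the ratios became 1.15, a reversal, and 0.851. Fold differences became 0.0373 and 0.353, background differences -3.61 and -1.79, inside minus outside pileup 13.0, and 24.5% of genes held a site. Pileup differences reversed to -17.0 and -9.0, the latter again with an interval that reached above 0 (-19.1 to 1.06).

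More than 100 bp from ends, the outside ratio was 0.707, 36.2% of genes held a site and 84.7% of X sites were inside. More than 500 bp away these were 0.572, 25.7% and 88.8%. More than 1000 bp away they were 0.524, 19.4% and 90.1%, with differences of 0.587 in fold inside, 4.0 in pileup outside and -1.02e-05 in background outside, and inside minus outside pileup of 10.0. With 1 summit per interval, background differed by -1.02e-05 outside, and by 1.12 inside minus outside. With ends of protein-coding genes only, background outside differed by -0.874 and 83.5% of X sites were inside.

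Of the 3 added, a pileup of 40 or more gave ratios of 0.995 inside and 0.743 outside, and summits at the genome-wide background a fold difference inside of 0.916. Leaving out stretches between genes over 50 kb gave a ratio of 0.631 outside. That limit could not change the ratio inside genes, which stayed at 0.876 and counts among the values that moved by less than their interval.

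No paired analysis was possible because 1 list serves both libraries, and for the same reason no fit without either library was made. Library depth, X copy number and read mappability were not measured here. Sites below the caller's limit, at a lowest pileup of 20, are not in the list.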
